A study of Homo sapiens with 12 samples.

Results

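The JmjC histone demethylases are enzymes that remove methyl groups from lysines of histone tails. KDM2A, KDM2B, KDM3A, KDM3B, KDM4A, KDM4B, KDM4C, KDM5A, KDM5B and KDM6B were taken by symbol from the annotation of the array, and all 10 were among the 19775 genes measured. Each gene's main value is the log2 intensity of its brightest probe set, a group of short probes for one stretch of transcript. The 10 genes had 37 probe sets of their own, from 1 (KDM2B) to 8 (KDM4B) a gene. RNA was measured on 12 Affymetrix arrays, with 3 in each of 4 groups: L3.6pl cells in hypoxia, L3.6pl cells in normoxia, FG cells in hypoxia and FG cells in normoxia. FG and L3.6pl are human pancreatic carcinoma lines that differ in metastatic potential, per the series title. L3.6pl was obtained by repeated growth in the mouse pancreas and recovery of liver metastases. All cells were grown in serum-containing medium from frozen stock, for about 9 days, and the hypoxic ones were kept at 1% oxygen for the final 24 h. The sources do not say that the replicates were separate cultures, so every p-value here measures the spread between these arrays, which may be technical.

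JmjC enzymes hold iron and use molecular oxygen and 2-oxoglutarate to hydroxylate a methyl group, which then leaves as formaldehyde. Oxygen is therefore a substrate of the reaction, and succinate and fumarate can inhibit it. The family divides by substrate: KDM3 enzymes act on mono- and dimethylated H3K9, KDM4 enzymes on trimethylated H3K9 and H3K36, KDM2 enzymes on H3K36, KDM5 enzymes on H3K4 and KDM6 enzymes on H3K27. Methylation of H3K9 and H3K27 goes with silent chromatin, and that of H3K4 and H3K36 with active genes. KDM3A and KDM4B are known from other cell types as targets of the hypoxia-inducible factor HIF-1, which binds DNA at a short core sequence, ACGTG or GCGTG. Transcript levels do not measure the activity of these enzymes.

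Of the 10 members, KDM3A and KDM4B moved most. The promoters of these and of the other KDM3 and KDM4 members, 5 in all, are printed to show where that core stands. They are RefSeq sequences of assembly GRCh38.p14 that run from 250 bases before to 50 bases after an annotated start, 5′ to 3′ on the gene's strand. Capitals mark ACGTG or GCGTG on either strand, and CACGTG holds ACGTG on both strands at once, so that its matches overlap.
KDM3A, chr2:86441121-86441420 (+): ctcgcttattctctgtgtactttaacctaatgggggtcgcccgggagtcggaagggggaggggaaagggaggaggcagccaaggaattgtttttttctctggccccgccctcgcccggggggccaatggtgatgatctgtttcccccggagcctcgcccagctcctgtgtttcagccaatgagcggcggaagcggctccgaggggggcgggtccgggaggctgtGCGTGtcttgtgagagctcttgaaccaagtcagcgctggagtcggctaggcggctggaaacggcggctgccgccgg
KDM4A, chr1:43649899-43650198 (+): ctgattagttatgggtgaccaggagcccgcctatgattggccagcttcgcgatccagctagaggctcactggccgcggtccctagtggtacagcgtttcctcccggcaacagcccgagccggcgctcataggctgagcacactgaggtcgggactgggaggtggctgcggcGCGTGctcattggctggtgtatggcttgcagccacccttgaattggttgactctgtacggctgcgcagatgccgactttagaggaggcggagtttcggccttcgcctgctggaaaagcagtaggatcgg
KDM4B, chr19:4968863-4969162 (+): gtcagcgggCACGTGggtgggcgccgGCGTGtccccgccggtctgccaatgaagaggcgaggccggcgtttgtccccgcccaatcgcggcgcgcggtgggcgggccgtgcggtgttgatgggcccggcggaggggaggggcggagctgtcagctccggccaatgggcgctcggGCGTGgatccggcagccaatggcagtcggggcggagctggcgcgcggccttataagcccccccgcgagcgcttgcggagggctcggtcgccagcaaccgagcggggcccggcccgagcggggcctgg
KDM4C, chr9:6757723-6758022 (+): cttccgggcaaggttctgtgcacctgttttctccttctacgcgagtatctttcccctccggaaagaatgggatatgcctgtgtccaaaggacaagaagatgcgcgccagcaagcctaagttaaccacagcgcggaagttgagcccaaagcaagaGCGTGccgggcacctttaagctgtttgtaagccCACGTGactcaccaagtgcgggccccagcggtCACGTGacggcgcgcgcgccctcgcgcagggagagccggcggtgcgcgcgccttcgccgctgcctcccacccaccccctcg
KDM3B, chr5:138352435-138352734 (+): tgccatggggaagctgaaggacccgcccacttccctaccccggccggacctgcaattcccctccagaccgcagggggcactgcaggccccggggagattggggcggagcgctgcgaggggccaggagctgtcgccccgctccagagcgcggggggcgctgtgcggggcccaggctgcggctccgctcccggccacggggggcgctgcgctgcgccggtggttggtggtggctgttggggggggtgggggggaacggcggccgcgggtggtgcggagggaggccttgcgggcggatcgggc

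The KDM3A window held GCGTG from position -26, counted in bases from the start. The KDM4A window held GCGTG at -79. The KDM4B window held the overlapping pair of ACGTG matches at -241 and -240 and GCGTG at -224 and -77. The KDM4C window held GCGTG at -96 and an overlapping ACGTG pair at each of -63 and -31. The KDM3B window held neither word. All 10 members had at least 1 window in the RefSeq table, with 16 windows in all. Of these 16 windows, 3 held ACGTG (1 each of KDM2B, KDM4B and KDM4C), 12 held GCGTG and 13 held at least one of them. The KDM3A windows overlap each other. Of the 35116 promoter windows in the table, 21.41% held ACGTG, 36.54% held GCGTG and 48.45% held at least one of them. G and C made up 53.0% to 84.0% of the letters in the members' windows. That share was not taken for all windows, and whether it accounts for the members' counts was not tested. These matches are letters in a window, and no binding was measured.

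Of the 12 arrays, L3.6pl hypoxia replicate 3, L3.6pl normoxia replicate 1 and FG normoxia replicate 1 had the largest gap between 3′ and 5′ control probe sets for ACTB (β-actin). Their 3′ sets were 1.34, 0.87 and 1.14 log2 units brighter than the 5′ sets, against 0.34 to 0.71 on the other arrays. Their genes lay a median of 0.23, 0.16 and 0.19 log2 units from the other 2 arrays of their group, against 0.11 to 0.17 on the other arrays, so that L3.6pl normoxia replicate 1 lay within the range of the others. A larger gap of this kind is a known sign of shortened RNA, and its part in the results was not tested. For the second control, GAPDH, the 3′ sets less the 5′ sets gave -0.03, -0.09 and 0.01 log2 units on these 3 arrays. On the other arrays GAPDH gave -0.18 to -0.12, so no array had a large 3′ excess by that control. Members' results whose call changes without these 3 arrays are given both ways. That setting leaves the other 2 arrays in each group concerned. The 3 arrays also stood apart in earlier results of these data. Leaving out such arrays can narrow the spread that the test uses, so smaller p-values without them are not independent support. The 8 markers of pancreatic carcinoma epithelium averaged 10.64 to 11.30 log2 units over the arrays. The 8 fibroblast and stellate markers averaged 5.44 to 6.33, and the 6 measured acinar and endocrine markers 3.80 to 3.93. The 5 measured blood markers averaged 5.06 to 5.28, and the 4 endothelial ones 4.37 to 4.90. Single markers departed from these averages: the brightest fibroblast and stellate one, COL1A1, averaged 9.72, and the dimmest epithelial one, CLDN4, 7.23. The brightest endothelial one, PECAM1, averaged 7.35, above CLDN4, and the brightest blood one, HBB, 6.55.

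**Figure D1:**
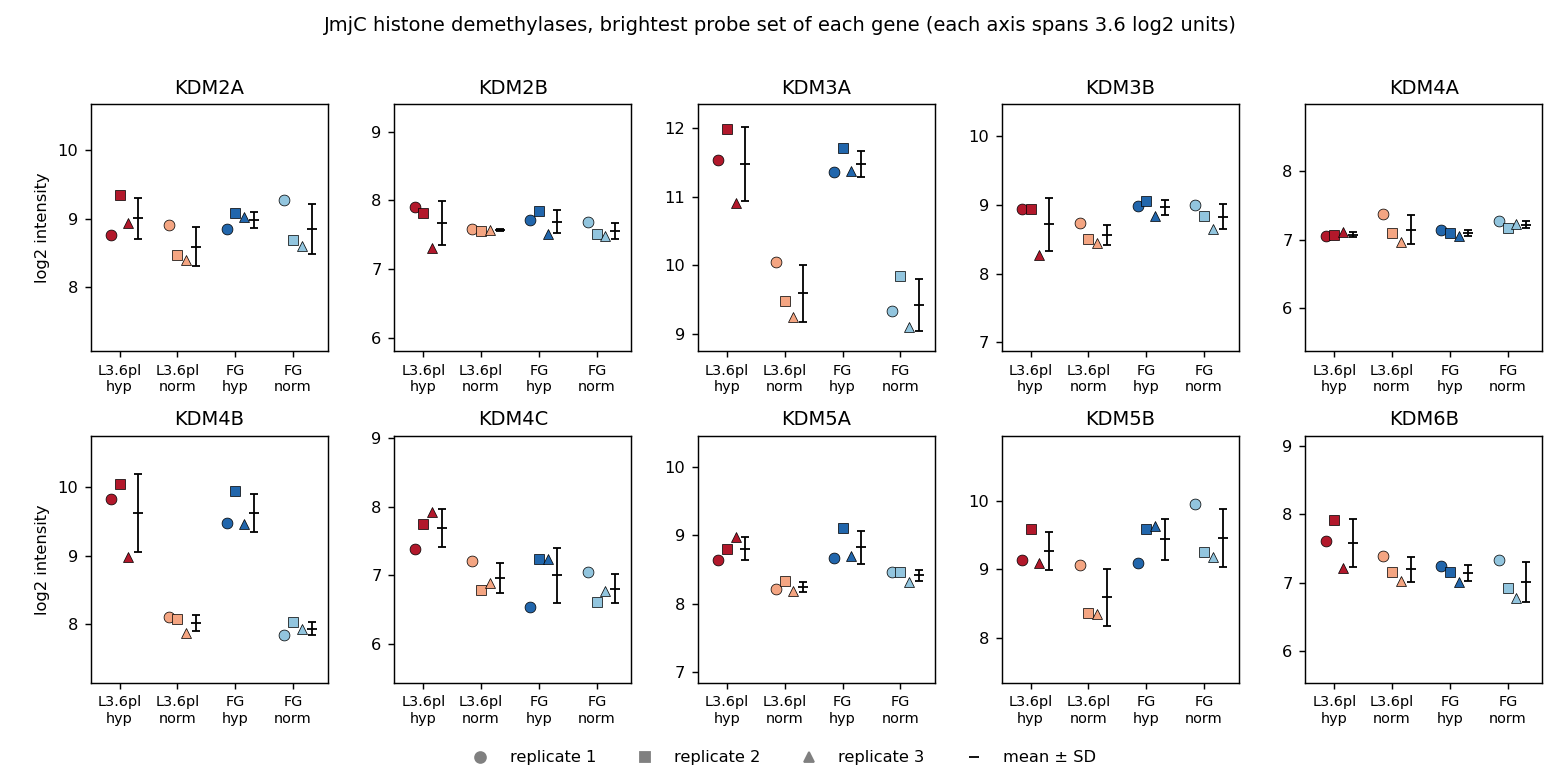
Log2 intensity (vertical axis) of the brightest probe set of each of the 10 genes on the 12 arrays, by group, with a marker shape for each replicate and a bar for the mean ± SD (n = 3). The hypoxic arrays of KDM3A and KDM4B lie above the normoxic ones in both lines, while KDM4A stays between 6.97 and 7.38 on all arrays.

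Hypoxia was compared with normoxia in each line to find which demethylase transcripts changed with oxygen. In L3.6pl cells 3 of the 10 genes rose and 0 fell in limma's moderated test, at an adjusted p below 0.05 over all 19775 genes. They were KDM3A, KDM4B and, judged by its brightest probe set, KDM5A, whose 5 probe sets averaged gave -0.06 (limma adjusted p = 0.846). In FG cells 2 rose, KDM3A and KDM4B, and 0 fell. Among all genes, 3.89% were called higher and 2.97% lower in L3.6pl, and 4.24% higher and 6.47% lower in FG. The median log2 difference over the 10 genes was 0.49 in L3.6pl, where that over all genes was -0.02, and 0.13 in FG, where that over all genes was -0.03. Without adjustment, 5 of the 10 genes in L3.6pl and 3 in FG had a limma p below 0.05. Of all 19775 genes, 4205 in L3.6pl and 4604 in FG did. Without the 3 arrays with the largest ACTB gap, 6 members were called higher in L3.6pl. The added ones were KDM2A, KDM3B, KDM5B and KDM6B, and KDM5A was not among the 6. That setting also called more of all 19775 genes in L3.6pl, 4179 in either direction against 1357 with all arrays. The arrays measure RNA of whole cultures, so a higher level in every cell and a larger share of cells with a high level cannot be told apart.

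KDM3A, which removes mono- and dimethyl marks from H3K9, had the largest difference of the 10 in both lines. Its log2 intensity was 11.53, 11.99 and 10.90 in hypoxic L3.6pl cells, against 10.05, 9.48 and 9.24 in normoxic ones. In FG it was 11.36, 11.70 and 11.37 in hypoxia, against 9.33, 9.84 and 9.10 in normoxia. No hypoxic array overlapped a normoxic one in either line, and the lowest hypoxic value was that of L3.6pl replicate 3. The log2 difference was 1.89 ± 0.29 (SE, 95% interval 1.24 to 2.53) in L3.6pl, a 3.70-fold rise with a limma adjusted p of 0.0041. In FG it was 2.05 ± 0.29 (1.41 to 2.70), a 4.15-fold rise with a limma adjusted p of 0.00188. The L3.6pl effect less the FG effect was -0.16 (95% interval -1.08 to 0.75). The gene's second, dimmer probe set, 242758_x_at, was 1.34 log2 units higher in L3.6pl and 1.65 in FG and was called in neither line (limma adjusted p = 0.16 and 0.061). Both calls held under all 23 alternative settings, with limma adjusted p-values of at most 0.0295 in L3.6pl and 0.0126 in FG.

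KDM3B, the paralog of KDM3A, had a level of 8.27 to 8.95 in hypoxic L3.6pl cells and 8.45 to 8.73 in normoxic ones. In FG it ranged from 8.85 to 9.06 in hypoxia and from 8.65 to 9.01 in normoxia. Its groups overlapped, and its log2 difference was 0.16 (95% interval -0.23 to 0.55) in L3.6pl and 0.13 (-0.26 to 0.53) in FG. L3.6pl hypoxia replicate 3 held its lowest value. Without the 3 arrays with the largest ACTB gap, the difference in L3.6pl was 0.47, with a limma adjusted p of 0.0213, in a range from 0.0213 to 0.949 over 23 alternatives.

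KDM4B, which removes trimethyl marks from H3K9 and H3K36, rose in both lines. It had 9.83, 10.05 and 8.98 log2 units in hypoxic L3.6pl cells, against 8.10, 8.07 and 7.88 in normoxic ones. In FG it had 9.47, 9.94 and 9.46 in hypoxia, against 7.84, 8.04 and 7.92 in normoxia. Every hypoxic array lay above every normoxic array of both lines. The log2 difference was 1.60 ± 0.24 (SE, 95% interval 1.08 to 2.13, limma adjusted p = 0.00323) in L3.6pl and 1.69 ± 0.24 (1.16 to 2.21, limma adjusted p = 0.00174) in FG. These are 3.04-fold and 3.22-fold rises, and the L3.6pl effect less the FG effect was -0.09 (-0.83 to 0.65). All 8 probe sets of KDM4B were higher in hypoxia in both lines, by 0.10 to 1.60 in L3.6pl and by 0.27 to 1.69 in FG, and 4 of the 8 were called in each line. The mean over the 8 probe sets gave smaller differences, 0.78 in L3.6pl and 0.82 in FG, both still called (limma adjusted p = 0.00897 and 0.00471). Over all 23 alternative settings the adjusted p stayed between 3.64e-05 and 0.0303 in L3.6pl and between 1.34e-05 and 0.0108 in FG.

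The other KDM4 genes were not called in hypoxia by their brightest probe sets. KDM4A, which has the same substrates as KDM4B, had the narrowest range of the 10 genes over single arrays, while its group means spanned 0.15 log2 units and those of KDM2B 0.13. It measured 7.05, 7.07 and 7.11 in hypoxic L3.6pl cells, against 7.38, 7.10 and 6.97 in normoxic ones, and 7.14, 7.10 and 7.06 in hypoxic FG cells, against 7.28, 7.17 and 7.23 in normoxic ones. Its log2 difference was -0.07 (95% interval -0.30 to 0.15) in L3.6pl and -0.12 (-0.35 to 0.10) in FG, and neither passed the test. KDM4C, a further H3K9 and H3K36 demethylase, measured 7.39, 7.76 and 7.93 in hypoxic L3.6pl cells, against 7.21, 6.79 and 6.89 in normoxic ones. In FG it measured 6.54, 7.23 and 7.24 in hypoxia, against 7.04, 6.61 and 6.77 in normoxia. The L3.6pl groups did not overlap and the FG groups did. The difference in L3.6pl, 0.73 (0.26 to 1.20), had a limma adjusted p of 0.0702, which ran from 0.01 to 0.235 over 23 alternatives, with 5 of them below the threshold. In FG it was 0.20 (-0.27 to 0.67). The second KDM4C probe set, 244385_at, was called in L3.6pl, at 0.71 (limma adjusted p = 0.034).

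**Figure D2:**
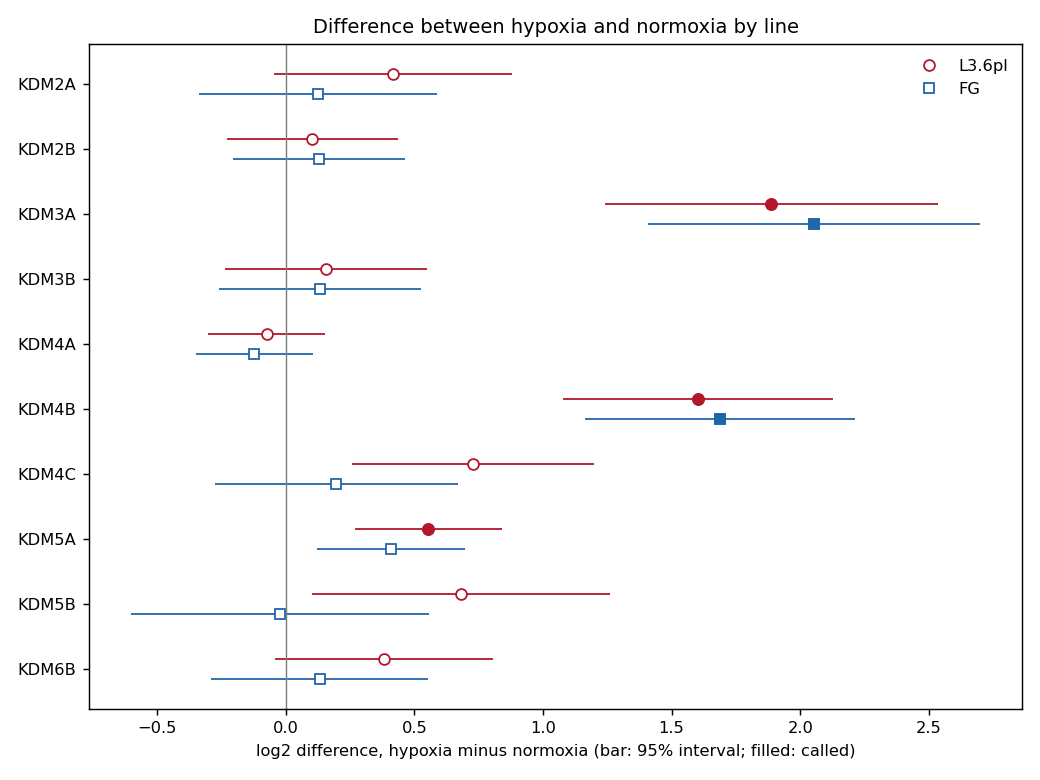
Log2 difference of hypoxia minus normoxia (horizontal axis) for the brightest probe set of each gene in L3.6pl (circles) and FG (squares), with 95% intervals and filled symbols for called differences. KDM3A and KDM4B lie between 1.60 and 2.05 in both lines, and the other 8 genes between -0.12 and 0.73.

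KDM2A and KDM2B, which act on H3K36 and bind unmethylated CpG islands, did not pass the test in either line. KDM2A measured 8.76 to 9.34 in hypoxic L3.6pl cells, against 8.39 to 8.91 in normoxic ones, and 8.85 to 9.08 in hypoxic FG cells, against 8.61 to 9.28 in normoxic ones. Its difference was 0.42 (95% interval -0.04 to 0.88) in L3.6pl and 0.12 (-0.34 to 0.59) in FG, with overlapping groups. Without the 3 arrays with the largest ACTB gap it was 0.62 in L3.6pl, with a limma adjusted p of 0.0378, in a range from 0.0378 to 0.651 over 23 alternatives. The dimmer KDM2A probe sets 208987_s_at and 208989_s_at were 0.59 and 0.44 higher in hypoxic FG cells, the first without overlap of its groups. In L3.6pl these sets were 0.47 and 0.50 higher. None of the 3 KDM2A sets was called in either line. KDM2B, which brings the Polycomb complex PRC1.1 to CpG islands, measured 7.30 to 7.90 in hypoxic L3.6pl cells, against 7.55 to 7.59 in normoxic ones, and 7.51 to 7.84 in hypoxic FG cells, against 7.48 to 7.69 in normoxic ones. Its difference was 0.10 (-0.23 to 0.44) in L3.6pl and 0.13 (-0.20 to 0.46) in FG.

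The H3K4 demethylases KDM5A and KDM5B gave readings that depended on the probe set. By its brightest probe set, 202040_s_at, KDM5A measured 8.64, 8.79 and 8.97 in hypoxic L3.6pl cells, against 8.21, 8.33 and 8.19 in normoxic ones. In FG it measured 8.67, 9.10 and 8.70 in hypoxia, against 8.46, 8.47 and 8.32 in normoxia. The groups did not overlap in either line. The rise in L3.6pl was 0.55 ± 0.13 (SE, limma adjusted p = 0.0283), and the FG difference of 0.41 ± 0.13 had a limma adjusted p of 0.0721. Dimmer KDM5A probe sets went the other way. 226371_at measured 6.25, 6.53 and 6.49 in hypoxic FG cells, against 7.24, 7.26 and 7.14 in normoxic ones, and fell by 0.79 (limma adjusted p = 0.00486). In L3.6pl it measured 6.40, 6.61 and 6.89 in hypoxia, against 7.14, 6.89 and 6.92 in normoxia. 230226_s_at fell by 0.94 in FG (limma adjusted p = 0.0356). The rise in L3.6pl by the brightest set lost its call without L3.6pl hypoxia replicate 2 or 3 or without any 1 of the 3 L3.6pl normoxia replicates, with limma adjusted p-values from 0.0516 to 0.098. Without the 3 arrays with the largest ACTB gap it was 0.45 and was not called (limma adjusted p = 0.0778). No direction can be given to KDM5A as a gene from these probe sets.

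KDM5B, by 211202_s_at, measured 9.13, 9.59 and 9.09 in hypoxic L3.6pl cells, against 9.06, 8.36 and 8.34 in normoxic ones. In FG it measured 9.10, 9.59 and 9.63 in hypoxia, against 9.95, 9.25 and 9.18 in normoxia. Its difference was 0.68 (95% interval 0.10 to 1.26, limma adjusted p = 0.158) in L3.6pl and -0.02 (-0.60 to 0.56) in FG. The adjusted p in L3.6pl ran from 0.0063 to 0.428 over 23 alternatives. Without the 3 arrays with the largest ACTB gap, KDM5B was 1.01 log2 units higher in hypoxic L3.6pl cells and passed the test (limma adjusted p = 0.00726). The probe set 201548_s_at rose by 1.05 in hypoxic L3.6pl cells (limma adjusted p = 0.0194), and 235285_at fell by 0.76 in hypoxic FG cells (limma adjusted p = 0.0127).

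KDM6B, which demethylates H3K27, measured 7.61, 7.91 and 7.21 in hypoxic L3.6pl cells, against 7.39, 7.16 and 7.03 in normoxic ones. In FG it measured 7.25, 7.16 and 7.01 in hypoxia, against 7.34, 6.92 and 6.77 in normoxia. Both pairs of groups overlapped, and the differences of 0.38 (95% interval -0.04 to 0.81) in L3.6pl and 0.13 (-0.29 to 0.55) in FG did not pass the test. Without the 3 arrays with the largest ACTB gap, the difference in L3.6pl was 0.67 (limma adjusted p = 0.00933, in a range up to 0.667 over 23 alternatives). The dimmest of its 5 probe sets, 1556067_a_at, measured 6.07, 6.24 and 5.80 in hypoxic L3.6pl cells, against 5.50, 5.18 and 5.43 in normoxic ones, and rose by 0.67 (limma adjusted p = 0.0131).

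Each of the 37 probe sets was also tested singly, over 41091 probe sets. In L3.6pl 9 were called higher and 0 lower in hypoxia, where 5.97% of all probe sets were called in either direction. In FG 5 were called higher and 3 lower, where 11.4% of all were called. Of the 9 in L3.6pl, 4 were of KDM4B and 1 each of KDM3A, KDM4C, KDM5A, KDM5B and KDM6B. The 3 that fell in FG were the KDM5A and KDM5B sets named above.

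**Figure D3:**
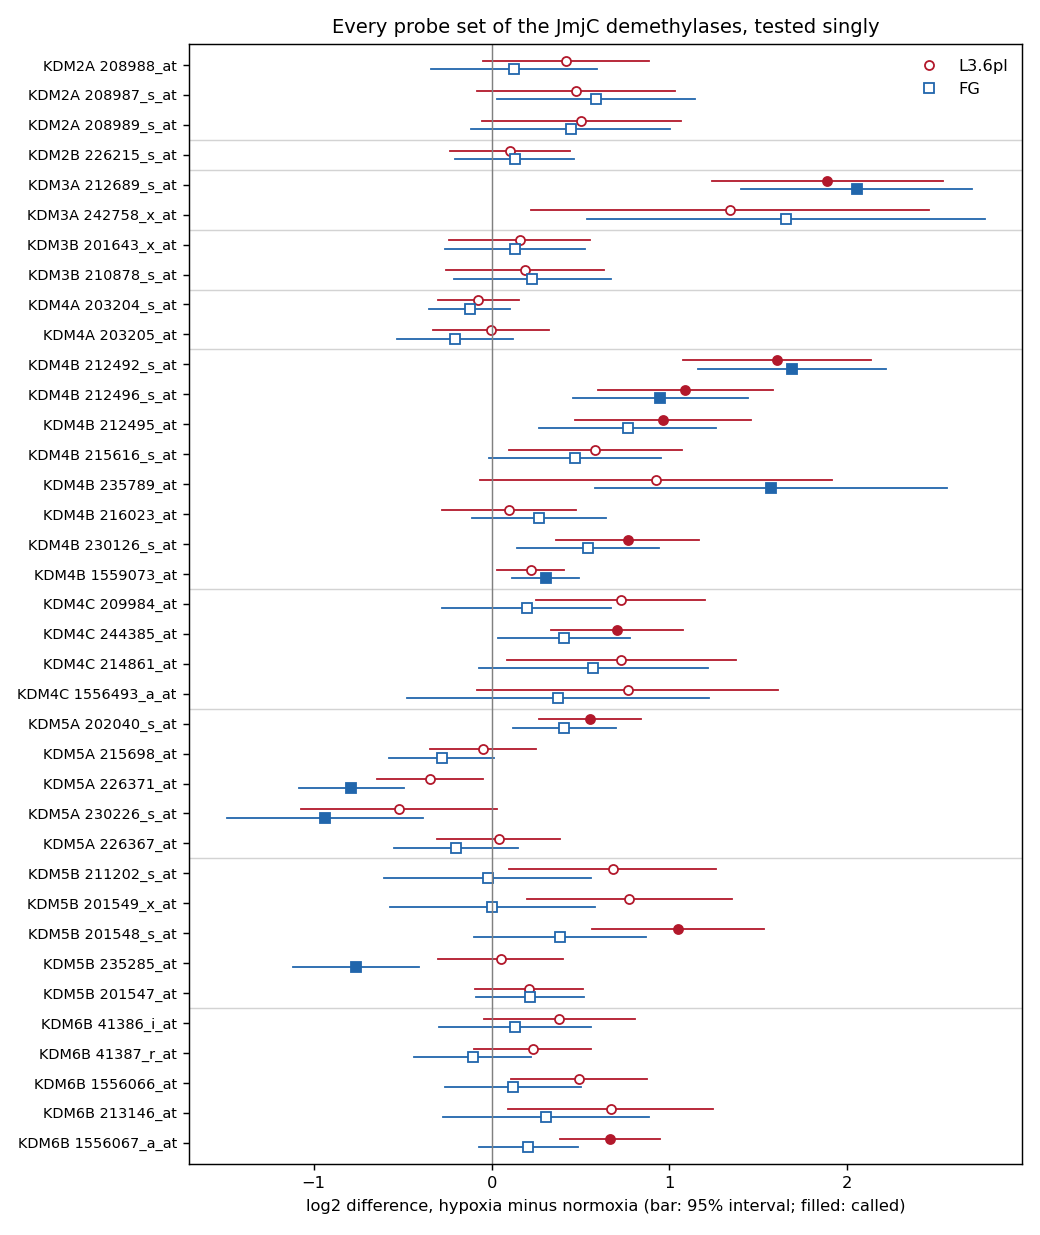
Log2 difference of hypoxia minus normoxia (horizontal axis) for each of the 37 probe sets, grouped by gene and brightest first, in L3.6pl (circles) and FG (squares), with 95% intervals and filled symbols for called differences. All 8 KDM4B sets lie right of 0 in both lines, while the 5 KDM5A sets run from -0.94 to 0.41 in FG.

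L3.6pl was compared with FG at each oxygen level to see whether the lines differ in these transcripts. Without a replicate block, 0 of the 10 genes were called in normoxia and 0 in hypoxia by limma, with 1 gene (KDM5B) and 2 genes (KDM4C and KDM6B) at an unadjusted p below 0.05. Of all 19775 genes, 4377 in normoxia and 5614 in hypoxia had an unadjusted limma p below 0.05. Among all genes, 5.16% were called higher and 5.54% lower in L3.6pl in normoxia, and 10.0% higher and 6.72% lower in hypoxia. Arrays of both lines with the same replicate number at the same oxygen level deviated together, so the lines were also compared within replicate numbers. With that block, 1 gene was called lower in L3.6pl in normoxia (KDM5B) and 2 were called higher in hypoxia (KDM4C and KDM6B). The block also raised the share of all genes called, to 12.2% higher and 10.9% lower in normoxia and to 17.9% higher and 12.1% lower in hypoxia.

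KDM5B was lower in normoxic L3.6pl cells than in normoxic FG cells on all arrays. The log2 difference was -0.87 ± 0.26 without the block (SE, limma adjusted p = 0.0612) and -0.87 ± 0.12 with it (limma adjusted p = 0.00131). Over 24 alternatives the difference ran from -1.11 to -0.63 and the adjusted p from 0.00113 to 0.206. In hypoxia it was -0.17 (95% interval -0.75 to 0.41). Without the 3 arrays with the largest ACTB gap, the normoxic difference was -0.86 and passed the test (limma adjusted p = 0.0216). 4 of the 5 KDM5B probe sets were called lower in normoxic L3.6pl cells with the block, by 0.71 to 0.93 log2 units. Without it, 1 was called: 235285_at, at 5.30, 5.39 and 5.33 in L3.6pl, against 6.45, 6.11 and 6.25 in FG.

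KDM4C was 0.69 ± 0.21 log2 units higher in hypoxic L3.6pl than in hypoxic FG cells (SE), with a limma adjusted p of 0.0507 without the block and 0.000674 with it, in a range up to 0.172 over 24 alternatives. In normoxia the difference was 0.16 (95% interval -0.32 to 0.63). The second KDM4C probe set differed in normoxia too: 244385_at measured 7.26, 6.85 and 6.95 in normoxic L3.6pl cells, against 5.55, 6.09 and 5.95 in normoxic FG cells, a called difference of 1.15 (limma adjusted p = 0.00185). In hypoxia it measured 7.67, 7.93 and 7.58 in L3.6pl, against 6.18, 6.15 and 6.48 in FG, a difference of 1.45 (limma adjusted p = 0.000299). No L3.6pl array of this set overlapped an FG array at either oxygen level. The remaining KDM4C sets were not called without the block. With it, 1556493_a_at was called higher in hypoxic L3.6pl cells, at 0.76 (limma adjusted p = 0.0444), although its groups overlapped.

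KDM6B was 0.43 ± 0.19 higher in hypoxic L3.6pl than in hypoxic FG cells (SE), with a limma adjusted p of 0.166 without the block and 0.0223 with it, although the groups overlapped. The difference was 0.62 without the 3 arrays with the largest ACTB gap, with a limma adjusted p of 0.00759. Over 24 alternatives that adjusted p ran from 0.00759 to 0.441. Its 5 probe sets were 0.36 to 0.95 higher, of which 2 were called without the block and 5 with it. The other 7 genes were called in neither line comparison with or without the block. KDM3A and KDM4B differed between the lines in hypoxia by 0.00 (95% interval -0.65 to 0.65) and 0.00 (-0.53 to 0.52), and in normoxia by 0.16 (-0.48 to 0.81) and 0.08 (-0.44 to 0.61). Over the 37 probe sets without the block, 1 was called higher and 1 lower in L3.6pl in normoxia, and 3 higher and 1 lower in hypoxia, where 8.49% and 13.9% of all probe sets were called in either direction. With the block, 1 was higher and 4 lower in normoxia, and 9 higher and 0 lower in hypoxia, against 18.3% and 25.9% of all.

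**Figure D4:**
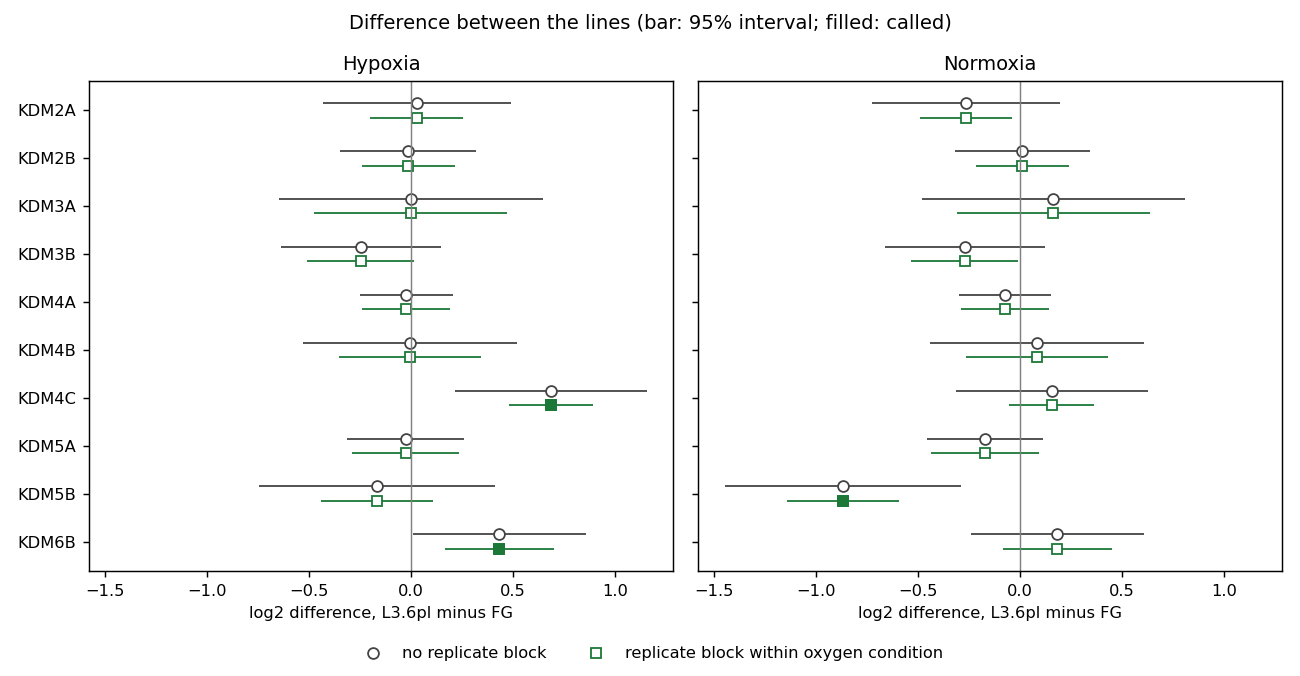
Log2 difference of L3.6pl minus FG (horizontal axis) for the brightest probe set of each gene, in hypoxia (left) and normoxia (right), without a replicate block (circles) and with one (squares), with 95% intervals and filled symbols for called differences. The filled symbols are KDM4C and KDM6B in hypoxia and KDM5B in normoxia, all with the block.

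The hypoxia effect was also compared between the lines. In limma's test 0 of the 10 genes differed, with 0 at an unadjusted p below 0.05, where 0.0152% of all genes were called higher and 0.0101% lower and 0.0633% of single probe sets were called. Of all 19775 genes, 1427 had an unadjusted limma p below 0.05 there, a count not taken with the block. With the block 0 genes were called and 2 had an unadjusted p below 0.05, where 2.54% of all genes were called higher and 1.01% lower. These were KDM5B, whose effect in L3.6pl was 0.70 log2 units larger than in FG (limma adjusted p = 0.065), and KDM4C, whose effect was 0.53 larger (limma adjusted p = 0.0648). Of the 37 probe sets, 1 was called with the block: 201549_x_at of KDM5B, at 0.77 (limma adjusted p = 0.0436), where 2.37% of all single probe sets were called.

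Other genes of histone methylation and of the 2-oxoglutarate oxygenases were counted from lists. Each hypoxia count that follows stands beside the shares of all genes called. These were 3.89% higher and 2.97% lower in L3.6pl, and 4.24% higher and 6.47% lower in FG. No list was tested against these shares. Of 17 measured other JmjC genes, 3 rose and 1 fell in hypoxic L3.6pl cells, and 4 rose and 2 fell in hypoxic FG cells. Among these 17, KDM7A measured 6.71, 7.58 and 7.02 in hypoxic L3.6pl cells, against 6.12, 5.39 and 5.60 in normoxic ones. In FG it measured 7.12, 7.54 and 7.35 in hypoxia, against 6.73, 6.03 and 6.07 in normoxia. KDM7A was named after its values were seen. JMJD6, a JmjC lysyl hydroxylase, rose by 1.12 ± 0.23 in L3.6pl (SE, limma adjusted p = 0.0165) and by 1.60 ± 0.23 in FG (limma adjusted p = 0.00203). The L3.6pl call ended without L3.6pl hypoxia replicate 1 or 2 or L3.6pl normoxia replicate 1 or 2, with adjusted p-values from 0.0507 to 0.0746. The mean of its probe sets gave smaller, still called differences of 0.50 in L3.6pl and 0.77 in FG. KDM6A, the H3K27 demethylase related to KDM6B, measured 7.82, 7.98 and 7.66 in hypoxic L3.6pl cells, against 7.94, 7.42 and 7.66 in normoxic ones. In FG it measured 9.05, 9.24 and 9.01 in hypoxia, against 8.43, 8.02 and 8.21 in normoxia. It rose by 0.88 in hypoxic FG cells (limma adjusted p = 0.00503) and differed by 0.15 in L3.6pl (limma adjusted p = 0.664). In hypoxia it was 1.28 lower in L3.6pl than in FG (limma adjusted p = 0.000272). The difference between the lines' hypoxia effects was -0.73, with a limma adjusted p of 0.382 without the replicate block and 0.0212 with it.

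Of the 8 genes of the flavin-dependent LSD demethylases and their CoREST partners, 1 rose in each line and 0 fell. The H3K4 and H3K9 demethylase KDM1A itself was not called, at -0.25 in L3.6pl and -0.19 in FG. HMG20B, a subunit of that complex, rose by 0.67 in FG (limma adjusted p = 0.00548). PHF21A, another subunit, rose by 0.96 in L3.6pl (limma adjusted p = 0.0146), and 4 single L3.6pl arrays ended that call when left out: hypoxia replicates 1 and 2 and normoxia replicates 2 and 3 (0.0554 to 0.074). The mean of its probe sets was not called either (0.59, limma adjusted p = 0.0991). Of 13 H3K4 methyltransferase genes, 0 rose and 1 fell in L3.6pl, and 1 rose and 4 fell in FG. MEN1, the menin subunit of KMT2 complexes, fell by 0.87 in FG (limma adjusted p = 0.00219) and was 1.05 higher in L3.6pl than in FG in hypoxia (limma adjusted p = 0.000312). SETD7, an H3K4 monomethyltransferase, fell by 0.54 in FG (limma adjusted p = 0.00258), and by 0.35 with the mean of its probe sets.

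Of 9 H3K9 methyltransferase genes, 0 were called in L3.6pl and 2 fell in FG. They were SETDB2, at -0.64, and SUV39H1, at -0.82 (limma adjusted p = 0.0189 and 0.0392). The SETDB2 call ended without FG hypoxia replicate 2 or FG normoxia replicate 3 (0.0544 to 0.0832) and its value was -0.38 with the mean of its probe sets, and the SUV39H1 call without any one of 9 arrays (0.0519 to 0.142). The SUV39H1 call also ended with cyclic loess normalization (limma adjusted p = 0.0541). Of 10 PRC2 genes, which methylate H3K27, 1 rose in L3.6pl and 1 fell in FG. These were PHF1, at 0.62, and SUZ12, at -0.55 (limma adjusted p = 0.0425 and 0.0166). The PHF1 call ended without any one of 9 arrays (0.0522 to 0.16) and with the mean of its probe sets (0.52, limma adjusted p = 0.0866). Cyclic loess normalization ended it too (limma adjusted p = 0.0512). The SUZ12 call ended without FG hypoxia replicate 1 or FG normoxia replicate 2 (0.0627 to 0.0635) and turned with the mean of its probe sets (0.19). It also ended with cyclic loess normalization (limma adjusted p = 0.0755) and with centring on array medians (0.0821). EED, a core subunit, was 1.21 lower in L3.6pl than in FG in hypoxia (limma adjusted p = 0.000996), and the mean of its probe sets gave -1.97. Of 6 measured H3K36 methyltransferase genes, 1 rose in L3.6pl and 0 were called in FG. The one was SMYD2, at 0.67 (limma adjusted p = 0.00684), and it was not called by the mean of its probe sets (limma adjusted p = 0.223). NSD3 was 1.24 lower in L3.6pl than in FG in hypoxia (limma adjusted p = 0.00725), and the mean of its probe sets gave -0.71.

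Partners of the members were counted too. Of 8 measured genes of PRC1.1, the complex of KDM2B, 1 rose in L3.6pl and 3 rose in FG. RYBP, a subunit that binds RING proteins, rose by 1.15 in FG (limma adjusted p = 0.00943), a call that the mean of its probe sets did not give (0.51, limma adjusted p = 0.0537). PCGF1, the PRC1.1 subunit that pairs with the RING proteins, was 0.66 higher in L3.6pl than in FG in normoxia (limma adjusted p = 0.00443). Of 8 genes of the SIN3B complex, in which KDM5A takes part, 1 fell in L3.6pl and 4 fell in FG. PHF12, at -1.17, and HDAC1, at -0.71, fell in FG (limma adjusted p = 0.0146 and 0.0215). The PHF12 call ended without FG hypoxia replicate 1 (0.0544) and with the mean of its probe sets (-0.54, limma adjusted p = 0.0742). The HDAC1 call ended without FG hypoxia replicate 1 or 2 or FG normoxia replicate 2 or 3 (0.0598 to 0.091).

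Of 8 other 2-oxoglutarate oxygenases that act on nucleic acids (TET, ALKBH and FTO genes), 0 were called in hypoxia in either line. FTO, an RNA demethylase, was 0.67 higher in L3.6pl than in FG in hypoxia (limma adjusted p = 0.00479). Of 9 measured enzymes of 2-oxoglutarate, succinate and fumarate, 2 fell in each line. IDH1, the cytosolic isocitrate dehydrogenase that makes 2-oxoglutarate, measured 9.98, 9.51 and 10.40 in hypoxic L3.6pl cells, against 11.75, 11.57 and 11.55 in normoxic ones. In FG it measured 10.01, 9.61 and 10.47 in hypoxia, against 11.72, 11.53 and 11.79 in normoxia. It fell by 1.67 in L3.6pl and by 1.65 in FG (limma adjusted p = 0.00265 and 0.00196). OGDH, which uses 2-oxoglutarate in the citric acid cycle, was 0.85 higher in L3.6pl than in FG in normoxia (limma adjusted p = 0.00111). It fell by 0.60 in hypoxic L3.6pl cells (limma adjusted p = 0.0141), a call that ended without L3.6pl normoxia replicate 2 (0.0544) and with the mean of its probe sets (0.193).

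Without the block, in normoxia 0 to 2 of a list were higher and 0 to 1 lower in L3.6pl, and in hypoxia 0 to 2 were higher and 0 to 2 lower. With the block, 0 to 8 genes of a list were called in normoxia and 1 to 8 in hypoxia. Of 13 H3K4 methyltransferase genes 8 were called at each oxygen level with the block, and of 17 other JmjC genes 6. Among all genes the block gave 12.2% higher and 10.9% lower in normoxia, and 17.9% higher and 12.1% lower in hypoxia. In limma's test without the block, 0 genes of the 10 other lists had a hypoxia effect called different between the lines. With it 3 did: KDM6A, PHF12 (0.80, limma adjusted p = 0.0289) and the H3K9 methyltransferase SETDB1 (0.80, limma adjusted p = 0.0314), the last named after its value was seen. The effect was larger in L3.6pl by only 1 of the 2 PHF12 probe sets.

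The genes nearest to a member in pattern were found for KDM3A and KDM4B, whose group means differed by at least 1 log2 unit. Each gene was centred on its own mean, and likeness was the root mean square difference over the 12 arrays. TNFRSF10D, BNIP3L and MXI1 were nearest to KDM3A, at 0.25, 0.25 and 0.25 log2 units. ANKZF1, BCAR3 and BNIP3L were nearest to KDM4B, at 0.18, 0.21 and 0.21. TNFRSF10D is a decoy receptor for the death ligand TRAIL, BNIP3L a mitophagy receptor and MXI1 a MYC antagonist.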

How the data were processed

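The authors deposited linear, normalized intensities. Per the submitters' processing notes these came from RMA, with no version and no step from log2 to linear values given. Array medians ran from 39.1 to 41.4 intensity units. Deposited intensities were turned to log2 here, with no further normalization and no floor. Precision is limited by having 3 arrays a group. Levels of different probe sets are not comparable with each other.

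Of 54675 probe sets, 62 were controls, 41091 named exactly 1 gene, 1801 named several and 11721 named none in the platform annotation, with symbols updated by gene number from the RefSeq gene table of GRCh38.p14. Each of 19775 genes was represented by whichever of its probe sets was brightest on average. All arrays entered 1 linear model with 4 group means in limma 3.58.1 (R 4.3.3, eBayes, 8 residual and 2.72 prior degrees of freedom), with Benjamini-Hochberg adjustment over all genes and a threshold of 0.05. Errors are limma standard errors. A second fit covered the 41091 single probe sets. An exact two-sided test of 3 arrays against 3 cannot reach 0.05. The fit was tested on simulated data.

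Replicate numbers are in the array titles, which do not say what they share. The deviations of same-numbered arrays from their group means correlated across lines at the same oxygen level (0.73, 0.53 and 0.68 in normoxia, 0.36, 0.44 and 0.46 in hypoxia). Across oxygen levels they did not do so in every pair (-0.04, -0.04 and 0.41 in L3.6pl, -0.22, -0.13 and 0.26 in FG). So the pairing comes from the data, and the block within each oxygen condition was added after the data were seen. Its values stand only beside the line comparisons and the comparison of hypoxia effects between the lines.

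The members and the lists were chosen with earlier results of these data known. Named genes beyond the members are KDM1A, KDM6A, at most 2 called genes a list with the smallest adjusted p in hypoxia and at most 1 in a line comparison, and the 3 nearest genes of each member whose group means differ by 1 log2 unit or more. KDM7A and SETDB1 were added after their values were seen. Alternatives were cyclic loess, array-median centring, removal of dim genes, averaging of a gene's probe sets, single probe sets, trend with robust moderation, array weights, an adjusted p below 0.01, fits of only the groups compared, replicate blocks, and leaving out each array or the 3 with the largest ACTB gap, which stood apart in earlier results of these data.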

Additional observations from a re-analysis of the deposited data

Results flagged for a closer look

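The hypoxia effects of 4 features differed between the lines in limma's interaction test with the replicate block within each oxygen condition, and in none of the 4 without it. The effect of KDM6A in L3.6pl was 0.73 log2 units smaller than in FG (difference -0.73, limma adjusted p = 0.0212). The effect of SETDB1 was 0.80 larger in L3.6pl (limma adjusted p = 0.0314), and that of PHF12 0.80 larger (limma adjusted p = 0.0289). Of 2 PHF12 probe sets, only 1 had a larger effect in L3.6pl. The KDM5B probe set 201549_x_at had an effect 0.77 larger in L3.6pl (limma adjusted p = 0.0436), while the gene's brightest set did not pass (limma adjusted p = 0.065). With this block, which was added after the data were seen, 2.54% of all genes were called higher and 1.01% lower.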

How the results depend on the processing

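Of 1170 values of the 10 members under alternative settings, 1124 kept both their direction, where called, and their side of the threshold, and the calls of KDM3A and KDM4B in hypoxia held under all 23 alternatives in both lines. The members called higher in hypoxic L3.6pl cells numbered 3, against 8 with array weights and 6 without the 3 arrays with the largest ACTB gap, and 2 to 4 when single arrays were left out. In FG they numbered 2, and 2 to 3 under the alternatives. Between the lines in normoxia the count was 0, against 1 with the filter on dim genes, 1 with each gene's probe sets averaged, 2 with array weights, 1 with the block within each oxygen condition and 1 without the 3 arrays, and 0 to 1 when single arrays were left out. In hypoxia it was 0, against 1 with centring on array medians, 1 with the filter, 2 with probe sets averaged, 1 with array weights, 2 with the block within each oxygen condition and 1 without the 3 arrays, and 0 to 1 when single arrays were left out. The interaction gave 0 under every alternative. A replicate block common to both oxygen levels, which the pairing check does not back, left these counts at 3, 2, 0, 0 and 0. With probe sets averaged, KDM5A in hypoxic L3.6pl cells turned to -0.0642 and SUZ12 in hypoxic FG cells to 0.19, since their probe sets run in both directions; for the other changes the cause was not tested. KDM5A in FG was called with cyclic loess (limma adjusted p = 0.0316), array-median centring (0.0332) and array weights (0.00688).

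All genes called in hypoxia numbered 1357 in L3.6pl and 2117 in FG. They numbered 5192 and 5729 with array weights, 4179 and 3871 without the 3 arrays, 475 and 860 at an adjusted p below 0.01, and 508 (without L3.6pl normoxia replicate 2) to 2436 (without L3.6pl hypoxia replicate 3) and 1029 (without FG hypoxia replicate 2) to 2899 (without L3.6pl hypoxia replicate 3) when single arrays were left out. Between the lines 2116 were called in normoxia and 3310 in hypoxia, against 4576 and 5935 with the block within each oxygen condition and 1025 and 1718 at an adjusted p below 0.01. In normoxia 6623 were called with array weights. Leaving out single arrays gave 1254 (L3.6pl normoxia replicate 2) to 2626 (L3.6pl hypoxia replicate 3) in normoxia and 2142 (FG hypoxia replicate 2) to 3813 (FG normoxia replicate 1) in hypoxia. The interaction count of 5 ran from 2 (without L3.6pl normoxia replicate 2) to 23 (without FG normoxia replicate 3) and became 421 with array weights and 703 with the block within each oxygen condition. That block changed no call of a member beyond KDM5B, KDM4C and KDM6B between the lines, and it made the interactions of KDM6A, PHF12 and SETDB1 pass. The number of arrays, 3 a group, limits all of these values.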
